A study of Homo sapiens with 17 samples.

Results

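The genes described here encode the collagens, laminins and integrins of MDA-MB-231 cells, that is, the fibres and sheets of the extracellular matrix and the receptors that hold cells to them. Members were taken by name and level: the symbol had to begin with COL, LAM or ITG in the pattern of these families, and the mean raw count over 17 libraries had to be at least 20. Of 58870 entries in the count table, 86 had a matching symbol and 43 of these reached the minimum. The 43 members comprised 18 collagen chains, 8 laminin chains, 14 integrin subunits and 3 genes that only share the letters: ITGBL1, ITGB1BP1 and ITGB3BP encode no integrin subunit and are given apart. All 43 passed the filter on low counts and were tested.

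The other 43 matching symbols fell short, 26 of them collagens, 4 laminins, 12 integrins and 1 of another kind, and 8 of the 43 had no count in any library. Since the mean count chose the members, their levels are a description. Just inside the minimum were ITGB8 (mean raw count 27.6), ITGBL1 (33.7) and ITGA10 (47.3), and just outside were COL15A1 (19.2), COL4A6 (15.8) and LAMA2 (14.4).

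Collagens are triple helices of alpha chains. Type IV forms the network of the basement membrane, types I and V form fibrils, type VI forms beaded filaments and type VII anchors epithelia to the stroma. Laminins are crosses of 1 alpha, 1 beta and 1 gamma chain, and LAMA3 and LAMB3 give the alpha and beta chains of the laminin that carries the adhesion of epithelial cells. Integrins are alpha-beta pairs on the cell surface. ITGB1 pairs with ITGA1 or ITGA2 to bind collagen, with ITGA3 or ITGA6 to bind laminin and with ITGA5 to bind fibronectin, while ITGA6 with ITGB4 builds the hemidesmosome.

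MDA-MB-231 is a human triple-negative breast cancer line that the labels class as mesenchymal, basal B. It received 45 nM TRAIL, a death ligand of the TNF family, a dose called suboptimal in the labels, and poly(A) RNA was sequenced at 0, 1, 3, 6, 12 and 24 h. There were 2 libraries at 1 h and 3 at each other time. All come from this 1 line, and all of them, 0 h included, carry the label TRAIL treated. No library labelled untreated at a later time was analysed, so hours of TRAIL and hours of culture cannot be told apart. The labels do not say that replicates were separate cultures, so p-values measure the spread between these libraries, which may be technical.

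Library totals ran from 13731520 counts (3 h replicate 2) to 19234924 (12 h replicate 2). The 43 members together took between 0.564% (3 h replicate 2) and 0.806% (24 h replicate 2) of a library's counts. The same 2 libraries were at the ends of a trend with transcript length: the slope of the log2 level (less that gene's average) was -0.14 per doubling of length in 3 h replicate 2 and 0.13 in 24 h replicate 2. Mitochondrial genes took 5.53% to 8.37% of counts at 0 h, 7.99% to 8.97% after 3 h, 3.97% to 5.45% after 6 h and 3.66% to 4.14% after 24 h. The part of the length trend and of the mitochondrial share in the results was not tested. Fold changes are given again with the trends of length and GC content removed for the main changes and where this ended a call or moved a called value by over 1.5 times. Replicates 2 and 3 resembled each other more than other pairs at 6 h and at 24 h (chi-square per gene 1.57 and 1.67, against 3.68 to 13.5 in other pairs), and were kept as separate libraries. In CPM, read counts scaled for library size by the TMM method, VIM was at 2495 to 3724 and CD44 at 1219 to 1557, ESR1 and PGR were at or below 0.148, and of the fibroblast genes COL3A1 and DCN were at or below 0.133. The fibroblast list of 5 genes summed to 2.29 to 5.29 CPM over all libraries. Not all genes listed as low or absent in such a line were near 0. CDH1 was at 0.267 to 1.01 CPM, but EPCAM was at 13.1 to 19.3 and ERBB2 at 56.4 to 70.9. Of the epithelial keratins listed, KRT8 was at 804 to 1142 and KRT18 at 522 to 931, while KRT5 and KRT14 were at or below 0.249.

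Levels can be compared between genes only per length. In CPM divided by kilobases of exon (the union of the exons of all transcripts) and averaged over 17 libraries, ITGB1 was highest at 224 and ITGA3 second at 116. LAMB3 (88.2), ITGA6 (57.9), LAMC1 (30.9) and COL6A1 (30.5) followed. ITGB1, ITGA3 and ITGA6, which are chains of laminin receptors, were above every collagen, and the highest collagens by this length were COL6A1, COL18A1 (27.0) and COL5A1 (24.3). The order of the collagens depends on the length used: per kb of the longest transcript COL13A1 (38.9) stood beside COL6A1 (38.4), and COL18A1 was at 34.9. Of 2 partner chains the alpha chain LAMA3 stood at 4.45 CPM per kb, against 88.2 for the beta chain LAMB3. Per kb of the longest transcript they were at 6.13 and 96.0. Both lengths of LAMA3 include its long form, so its level is understated where a shorter transcript is made. The lowest member was ITGB8 at 0.114 CPM per kb. The counts of ITGB1, ITGA1, LAMA5, ITGB1BP1, COL18A1, ITGB2 and ITGBL1 were not whole in 15 or more libraries, which arises where reads are shared out between genes, and their values are less certain.

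**Figure D1:**
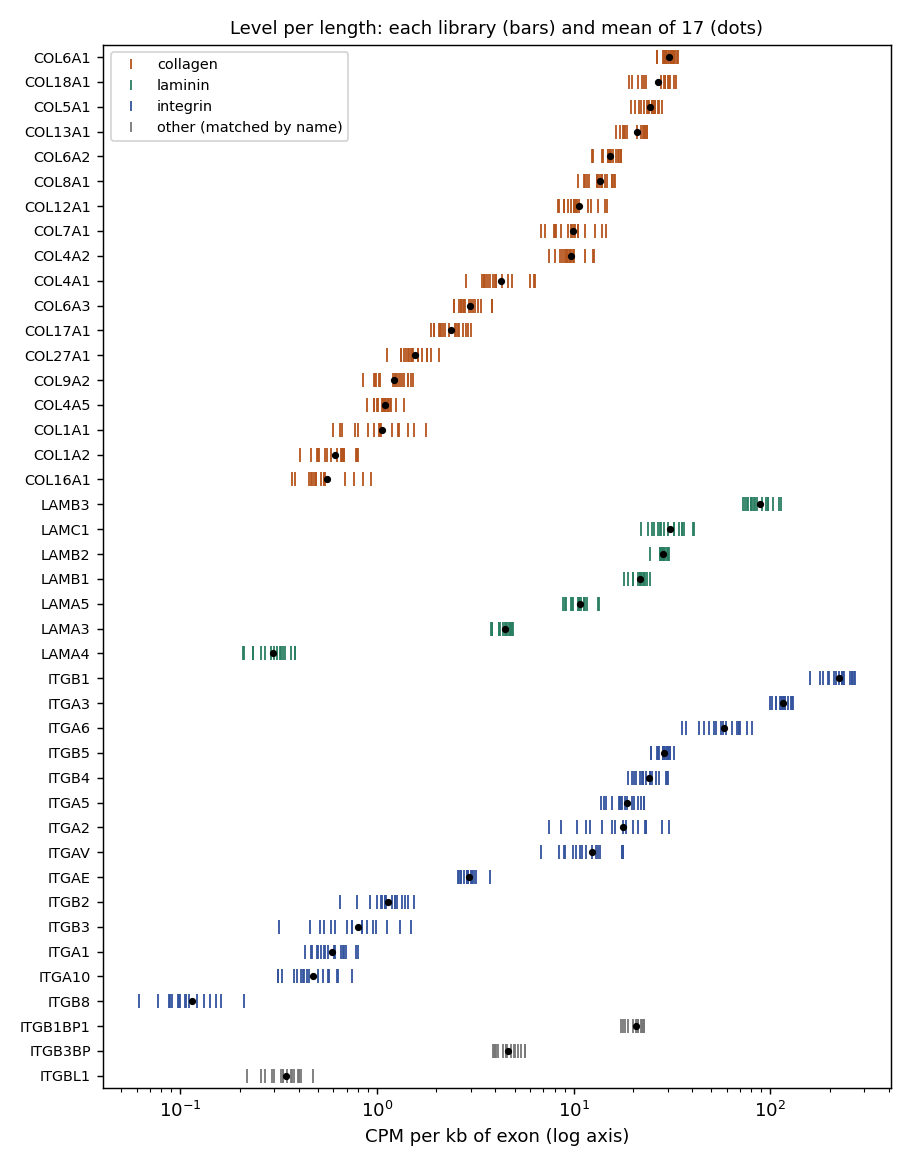
Level of the members in CPM per kb of exon on a log axis, with a bar for each of 17 libraries and a dot for their mean, coloured by family. ITGB1 and ITGA3 are the highest, at means of 224 and 116, and ITGB8 is the lowest at 0.114.

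Over the time course 35 of the 43 members changed between some times (edgeR quasi-likelihood test over all times, adjusted p under 0.05), against 64.2% of all 15365 genes tested. They were 16 of 18 collagens, 7 of 8 laminins, 11 of 14 integrins and ITGB3BP. All comparisons with 0 h share the 0 h libraries. In bulk RNA, fewer cells with a transcript and less of it per cell cannot be told apart. At 1 h no member differed from 0 h (0.312% of all genes did, 48 genes), and none had an unadjusted p under 0.05. At 3 h 3 members were higher and 9 lower (17.7% of all genes called), at 6 h 14 were higher and 8 lower (30.1%), at 12 h 3 were higher and 9 lower (12.4%), and at 24 h 9 were higher and 8 lower (35.1%). Scaled by library totals alone, the splits were 2 higher and 14 lower after 3 h and 13 higher and 3 lower after 24 h.

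No called member reached a 2-fold difference from 0 h: the 63 calls had absolute log2 fold changes of 0.18 to 0.86. ITGA5 was called at 4 times, 9 members at 3 times, 9 at 2, 14 at 1 and 10 at 0 times, and 8 members were called in both directions at different times. Of the 63 calls, 26 were made again under every alternative setting. The median log2 fold change of the members was -0.04 after 1 h, -0.11 after 3 h, 0.09 after 6 h, -0.09 after 12 h and 0.07 after 24 h, while that of all genes lay between -0.02 and 0.00 at each of these times.

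The counts at 3 h, 6 h and 12 h rest in part on single libraries. The 12 calls at 3 h became 7 without 0 h replicate 2, 7 without 0 h replicate 3, 6 without 3 h replicate 1 and 5 without 3 h replicate 2. The 22 calls at 6 h became 12 without 0 h replicate 1, 14 without 6 h replicate 2 and 13 without 6 h replicate 3. The 12 calls at 12 h became 6 without 0 h replicate 2 and 5 without 12 h replicate 2, and the 17 at 24 h became 9 without 0 h replicate 1.

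**Figure D2:**
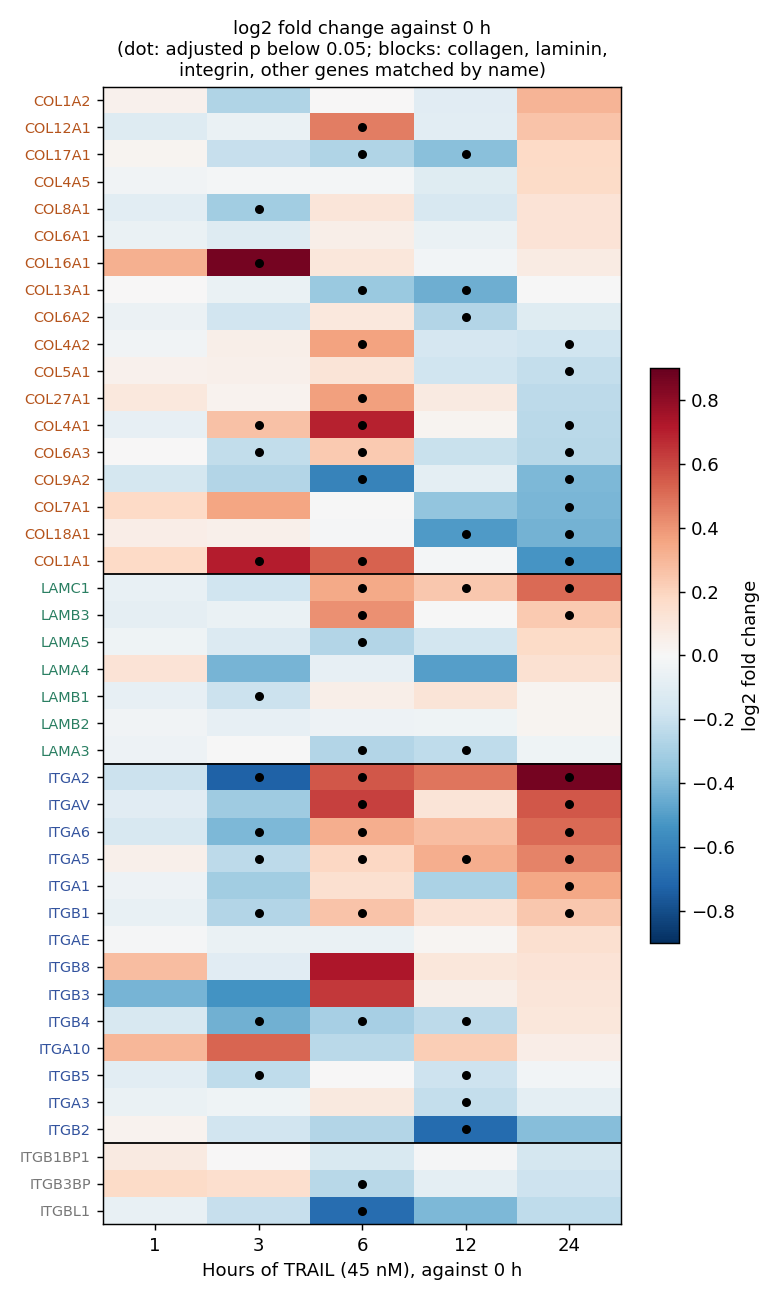
Log2 fold change of the members (rows, grouped by family) at 1, 3, 6, 12 and 24 h of TRAIL against 0 h (columns), with a dot where the adjusted p was under 0.05. The column for 1 h holds no dot, the 24 h dots are blue among collagens and red among laminins and integrins, and ITGA2 goes from a log2 fold change of -0.73 at 3 h to 0.86 at 24 h.

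Between successive times the most member calls, 27, were between 3 and 6 h. From 1 to 3 h 2 members rose and 2 fell (5.73% of all genes called, 3.17% higher and 2.56% lower), or 0 and 2 by library totals alone. From 3 to 6 h 21 members rose and 6 fell (43.2%, 22.9% and 20.3%). With the length and GC trends removed 18 rose and 9 fell (3601 and 2734 of all 15365 genes). The 21 that rose were 9 integrins, 8 collagens and 4 laminins, or 7, 7 and 4 with the trends removed. From 6 to 12 h 1 member rose and 16 fell (20.6%, 8.7% and 11.9%), and 11 of the 16 were collagens. With the trends removed 5 rose and 15 fell (1567 and 2623 of all genes). From 12 to 24 h 12 members rose and 3 fell (12%, 6.42% and 5.6%), or 12 and 1 by library totals alone. With the trends removed 11 rose and 6 fell (1454 and 1103 of all genes). The 12 that rose as first fitted included 5 laminins. The 15 calls from 12 to 24 h became 6 without 12 h replicate 1 and 9 without 12 h replicate 2. They became 6 without 24 h replicate 2 and 5 without 24 h replicate 3. The 4 calls between 1 and 3 h became 0 without 1 h replicate 1, 1 without 1 h replicate 2, 0 without 3 h replicate 1 and 2 without 3 h replicate 2.

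The type IV collagen pair was the clearest rise among the collagens. COL4A1 and COL4A2, the chains of the common basement membrane network, lie head to head on chromosome 13. On GRCh38 COL4A1 spans 110148963 to 110307233 on the minus strand and COL4A2 spans 110305812 to 110513209 on the plus strand. Their RefSeq start sites are 127 bases apart, and their promoter windows (250 bases before to 50 after the start) share 226 of 300 bases. They are shown because 1 stretch of sequence serves both genes. Capitals mark the motifs searched, which here are the GC box GGGCGG and the CCAAT box on either strand (RefSeq windows, GRCh38.p14, each 5′ to 3′ on the strand of its gene: COL4A1 at chr13:110307108-110307407, minus, and COL4A2 at chr13:110307034-110307333, plus).
COL4A1: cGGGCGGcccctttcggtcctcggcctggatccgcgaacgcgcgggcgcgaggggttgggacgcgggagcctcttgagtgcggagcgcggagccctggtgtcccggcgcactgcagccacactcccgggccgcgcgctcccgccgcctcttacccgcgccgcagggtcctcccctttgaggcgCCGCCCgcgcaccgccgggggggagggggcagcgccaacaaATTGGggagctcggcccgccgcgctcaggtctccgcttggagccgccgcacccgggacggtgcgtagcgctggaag
COL4A2: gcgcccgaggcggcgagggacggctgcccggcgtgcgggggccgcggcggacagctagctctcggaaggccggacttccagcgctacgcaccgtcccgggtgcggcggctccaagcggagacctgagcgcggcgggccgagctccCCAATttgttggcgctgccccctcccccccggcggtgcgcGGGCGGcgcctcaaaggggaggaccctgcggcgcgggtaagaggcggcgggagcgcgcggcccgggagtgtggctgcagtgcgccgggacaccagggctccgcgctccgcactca
The CCAAT box at -26 from the start of COL4A1 and the one at -105 from the start of COL4A2 are a single site read on opposite strands. The deposited counting's use of strand was not stated, so reads from the overlap of the 2 genes may have been exchanged. Counts of both genes were whole in each of the 17 libraries, and such an exchange was not tested.

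COL4A1 was at 52.8, 57.3 and 59.6 CPM at 0 h, 55.5 and 51.7 after 1 h and 71.8, 63.7 and 68.0 after 3 h. It stood at 88.8, 92.7 and 93.2 after 6 h, 54.2, 58.9 and 59.5 after 12 h and 41.7, 51.4 and 50.1 after 24 h. The 6 h libraries lay above all others, and the 24 h libraries below those at 0 h. The log2 fold change was 0.70 (SE 0.0748, adjusted p = 2.58e-06, 1.62-fold) at 6 h, and 0.61 with the length and GC trends removed. The rise at 3 h was smaller (0.26, adjusted p = 0.0226) and was lost without 0 h replicate 1 (0.22, 0.0764), 0 h replicate 2 (0.27, 0.0561) or 3 h replicate 1 (0.22, 0.103). At 24 h COL4A1 fell by 0.25 on the log2 scale (adjusted p = 0.0184). That call was lost without 0 h replicate 2 (-0.24, 0.0512), 0 h replicate 3 (-0.21, 0.0675) or 24 h replicate 1 (-0.15, 0.0991).

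COL4A2 was at 177, 188 and 186 CPM at 0 h, 179 and 179 after 1 h, 193, 192 and 185 after 3 h, 219, 244 and 243 after 6 h, 155, 164 and 176 after 12 h and 145, 172 and 169 after 24 h. As for its partner the 6 h libraries were the highest and did not overlap any other time. The log2 fold change at 6 h was 0.36 (SE 0.0652, adjusted p = 0.000538) and 0.32 with the trends removed, so the change of COL4A1 was the larger of the pair. From 6 to 12 h both fell, COL4A1 by 0.67 and COL4A2 by 0.51 on the log2 scale. COL4A2 was also called lower at 24 h (-0.18, adjusted p = 0.0397). This was lost without any 1 of the 0 h libraries (replicate 1: -0.21, 0.0517; replicate 2: -0.16, 0.107; replicate 3: -0.17, 0.0862) and without 24 h replicate 1 (-0.10, 0.194). COL4A5, a chain of a second type IV network, was at 10.6 to 16.2 CPM and was called at no time.

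**Figure D3:**
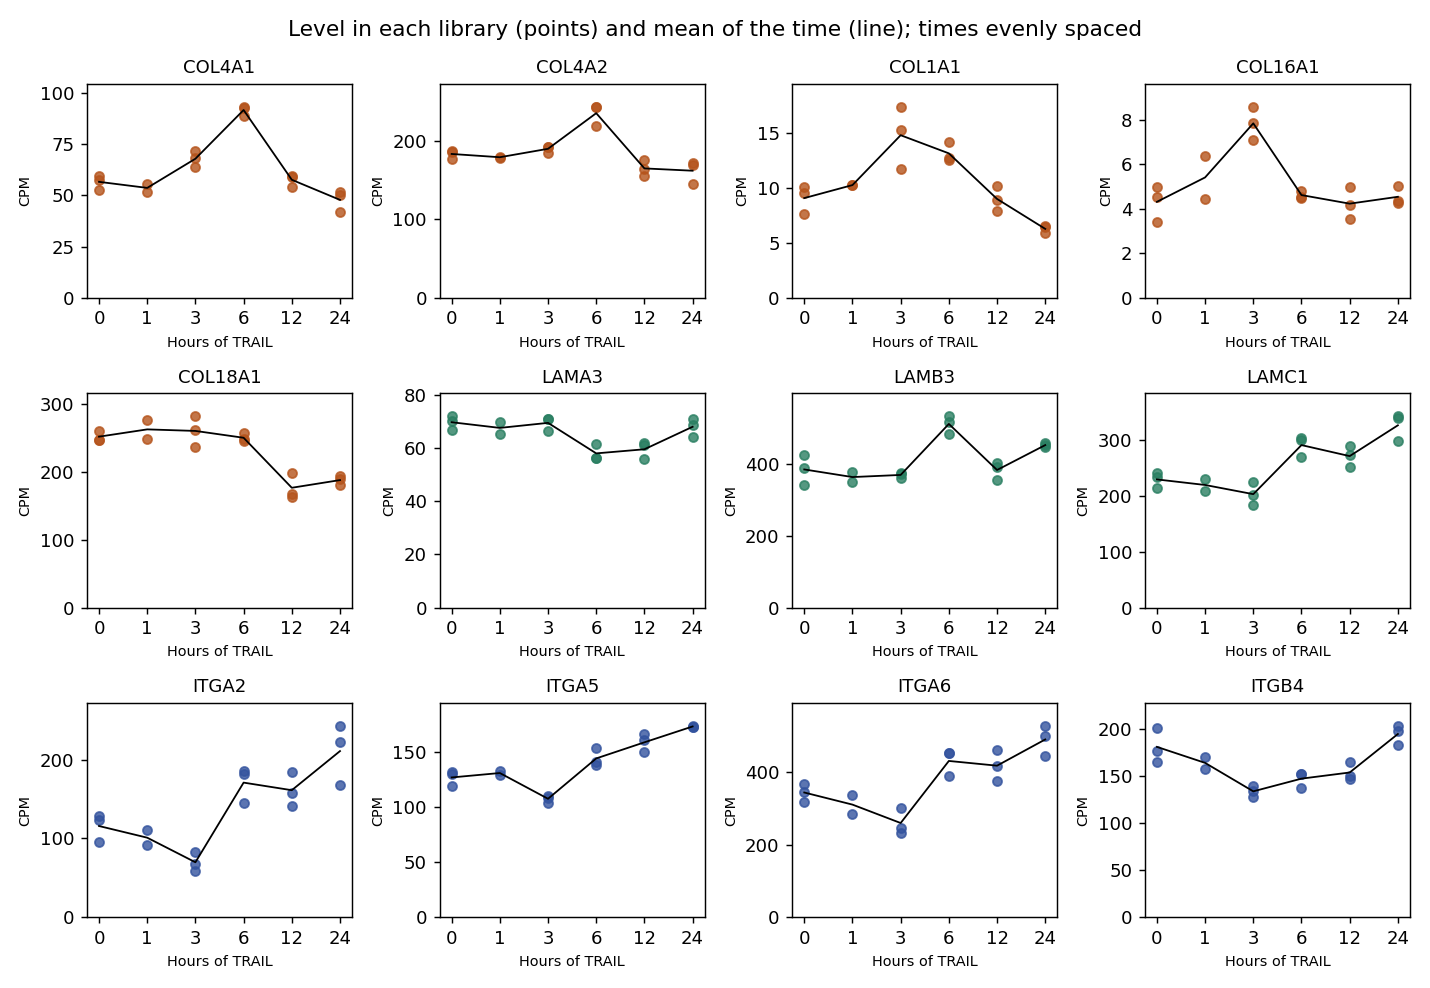
Level in CPM (linear axes from 0) of 12 members in each of 17 libraries (points) against hours of TRAIL, spaced evenly, with a line through the mean of each time. COL4A1, COL4A2 and LAMB3 are highest at 6 h, COL1A1 and COL16A1 at 3 h, and LAMC1, ITGA2, ITGA5 and ITGA6 at 24 h.

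Among the fibril collagens COL1A1, a chain of type I collagen, rose early and ended below its start. It was at 10.0, 9.53 and 7.59 CPM at 0 h and 10.2 and 10.3 after 1 h, then at 17.4, 15.2 and 11.7 after 3 h and 12.5, 14.1 and 12.7 after 6 h. The 12 h libraries had 10.1, 8.88 and 7.89 CPM and the 24 h libraries 6.38, 6.51 and 5.87. The 3 h and 6 h libraries lay above all 0 h libraries and the 24 h libraries below them. Its log2 fold change was 0.70 after 3 h (SE 0.134, adjusted p = 0.00138), 0.53 at 6 h (adjusted p = 0.00576) and -0.53 at 24 h (adjusted p = 0.00835), or 0.75, 0.48 and -0.57 with the trends removed. The 24 h call was lost only without 0 h replicate 1 (-0.45, 0.0504). COL1A2, the other chain of type I, was at 4.53 to 8.90 CPM and was called at no time, with a log2 fold change of -0.27 at 3 h. COL5A1, a regulatory fibril chain, was called at 24 h only (-0.21, adjusted p = 0.0224, and -0.30 with the trends removed). It was lost without 0 h replicate 2 (-0.21, 0.0534), 0 h replicate 3 (-0.18, 0.0826) or 24 h replicate 1 (-0.15, 0.098).

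COL16A1, a collagen that sits on the surface of fibrils, rose at 3 h and at no other time. Its 3 h libraries were at 8.60, 7.84 and 7.10 CPM, above all others, which lay between 3.42 and 6.40. The log2 fold change was 0.86 (SE 0.162, adjusted p = 0.00128, 1.82-fold), and it fell by 0.76 on the log2 scale from 3 to 6 h. COL12A1, also a fibril-associated collagen, rose at 6 h (0.46, adjusted p = 0.00555), from 112, 132 and 128 CPM to 147, 184 and 180, without overlap. With the trends removed its value was 0.29, more than 1.5 times smaller. COL27A1, a fibrillar chain of cartilage, rose at 6 h (0.37, adjusted p = 0.00879). COL9A2 was at 6.41, 5.79 and 6.04 CPM at 0 h and lower, at 4.30, 4.18 and 3.56, at 6 h (-0.60, adjusted p = 0.00444).

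COL18A1, the basement membrane collagen whose end fragment is endostatin, fell at 12 h and at 24 h. It was at 247, 261 and 248 CPM at 0 h and between 238 and 282 up to 6 h, then at 168, 163 and 199 at 12 h and 181, 194 and 190 at 24 h. No library of 12 or 24 h reached the lowest of the earlier ones. COL18A1 had a log2 fold change of -0.51 at 12 h (SE 0.0731, adjusted p = 0.000163, -0.34 with the trends removed) and -0.42 at 24 h (adjusted p = 0.000303, -0.36). COL13A1, a collagen anchored in the cell membrane, dipped in between: from 138, 138 and 132 CPM at 0 h to 110, 108 and 107 at 6 h and 101, 96.3 and 104 at 12 h, and back to 136, 133 and 138 at 24 h. It was lower at 6 h (-0.33, adjusted p = 0.000194) and 12 h (-0.44, adjusted p = 2.81e-05), and differed by -0.00 on the log2 scale at 24 h. COL17A1, the hemidesmosomal collagen, had means of 18.1 ± 1.78 CPM (SD, n = 3) at 0 h, 15.0 ± 0.397 after 6 h and 13.9 ± 0.775 after 12 h. Its call at 12 h (-0.37, adjusted p = 0.0121) was lost without 0 h replicate 1 (-0.30, 0.0735) or 12 h replicate 2 (-0.34, 0.0681). The call at 6 h (-0.27, adjusted p = 0.0312) was lost without 0 h replicate 1 (-0.19, 0.177), 0 h replicate 3 (-0.29, 0.0513) or any 1 of the 6 h libraries (-0.25, 0.0726; -0.27, 0.0783; -0.29, 0.0681).

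At 24 h 8 of 18 collagens were lower and 0 higher than at 0 h (17.1% of all genes were lower and 18% higher), but 3 were lower and 3 higher when libraries were scaled by their totals alone. The 3 higher ones were COL6A1, COL12A1 and COL17A1. With the length and GC trends removed 8 were lower and 1, COL6A1, higher. The median log2 fold change of the 18 was -0.14, -0.07 by totals alone and -0.11 with the trends removed. The 8 lower ones were COL1A1, COL18A1, COL7A1, COL9A2, COL4A1, COL6A3, COL5A1 and COL4A2. Their count became 4 without 0 h replicate 1, 5 without 0 h replicate 2, 3 without 0 h replicate 3 and 2 (beside 1 higher) without 24 h replicate 1. Of the 8 calls that of COL18A1 alone held under every setting. By library totals alone the calls of COL4A1 (-0.17, adjusted p = 0.128), COL4A2 (-0.10, 0.27), COL5A1 (-0.14, 0.15), COL6A3 (-0.17, 0.104) and COL9A2 (-0.33, 0.069) ended. The same scaling ended the call of COL4A1 at 3 h (0.19, 0.115).

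COL7A1, whose fibrils anchor the basement membrane, was at 127, 107 and 103 CPM at 0 h and 75.8, 89.4 and 88.2 at 24 h, below all 0 h libraries. Its call (-0.41, adjusted p = 0.0155) was lost without 0 h replicate 1 (-0.32, 0.0863) or 24 h replicate 1 (-0.34, 0.061). At 3 h it stood at 153, 161 and 116 CPM (0.35, adjusted p = 0.0508).

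The means of the type VI chains, partners in 1 filament, lay on the same side of 0 h after 3, 6 and 12 h but not after 24 h. The mean of each was below that at 0 h after 3 h, above it after 6 h and below it after 12 h. At 24 h COL6A1 was above its 0 h mean, and COL6A2 and COL6A3 were below theirs, but only COL6A3 was called. Within libraries the log2 ratio of COL6A3 over COL6A1 overlapped 0 h at 1, 3, 6 and 12 h. At 24 h it did not overlap (mean -1.80, against -1.42 at 0 h). The trends of length and GC content were not removed from this ratio. COL6A3 was at 57.6, 59.2 and 66.0 CPM at 0 h, 53.4, 48.6 and 54.9 after 3 h, 64.3, 75.4 and 75.7 after 6 h and 48.1, 54.6 and 51.2 after 24 h. It was called lower at 3 h (-0.22, adjusted p = 0.049), higher at 6 h (0.24, 0.0211) and lower at 24 h (-0.25, 0.0147). With the trends removed the 6 h value was 0.10 and no longer called, and the 24 h value was -0.42. The 24 h call was lost without 0 h replicate 3 (-0.19, 0.0749) or 24 h replicate 1 (-0.20, 0.0556). The 3 h call was lost without 0 h replicate 2 (-0.24, 0.0801) or 3 (-0.16, 0.238), or 3 h replicate 1 (-0.23, 0.0947) or 2 (-0.17, 0.207). The 6 h call was lost without 0 h replicate 1 (0.20, 0.104) or 2 (0.22, 0.069), or 6 h replicate 2 (0.20, 0.0967) or 3 (0.20, 0.109). COL6A1 was called at no time against 0 h, with 158, 168 and 164 CPM at 0 h and 175, 181 and 179 at 24 h, which did not overlap (0.13, adjusted p = 0.113). COL6A2 was called at 12 h (-0.26, adjusted p = 0.0199), and not with the trends removed (-0.07). That call was also lost without 0 h replicate 2 (-0.24, 0.0821) or 3 (-0.26, 0.0523), or 12 h replicate 1 (-0.22, 0.0779) or 2 (-0.20, 0.129).

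Of the remaining collagens COL8A1, a short-chain collagen, was at 124, 132 and 139 CPM at 0 h and 106, 98.7 and 113 at 3 h. Its call at 3 h (-0.31, adjusted p = 0.0198) was lost without 0 h replicate 2 (-0.31, 0.0587) or 3 (-0.27, 0.0945), or 3 h replicate 1 (-0.31, 0.0597) or 2 (-0.26, 0.0938). The 5 collagens called at 3 h (3 higher, 2 lower) became 2 without 0 h replicate 2, 3 without 0 h replicate 3, 2 without 3 h replicate 1 and 3 without 3 h replicate 2. By library totals alone 2 were higher and 5 lower at that time. At 6 h 6 collagens were higher and 3 lower (16.9% and 13.2% of all genes), and at 12 h 0 were higher and 4 lower (5.96% and 6.48%), the 4 becoming 2 without 12 h replicate 2. COL9A2 at 24 h (-0.41, adjusted p = 0.0314) was not called with the trends removed (-0.20), nor without 0 h replicate 1 (-0.37, 0.105) or 3 (-0.42, 0.0552), or 24 h replicate 1 (-0.38, 0.0748) or 3 (-0.34, 0.121).

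Among the laminins the beta chain LAMB3 rose at 6 h while LAMA3, the alpha chain of the same protein, fell. LAMB3, the beta chain, was at 341, 425 and 388 CPM at 0 h, 378 and 349 after 1 h, 361, 373 and 375 after 3 h, 484, 518 and 532 after 6 h, 356, 391 and 402 after 12 h and 446, 458 and 453 after 24 h. The 6 h and 24 h libraries lay above all those at 0 h, and those at 12 h among them. It rose at 6 h (0.41, SE 0.069, adjusted p = 0.00028, 0.42 with the trends removed). The call at 24 h (0.23, adjusted p = 0.0129) was lost without 0 h replicate 1 (0.15, 0.104) and with replicates 2 and 3 averaged at 6 and 24 h (0.22, 0.0586).

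LAMA3, the alpha chain, moved the other way. It was at 70.4, 71.9 and 67.0 CPM at 0 h, 65.3 and 69.9 after 1 h, 71.0, 71.1 and 66.5 after 3 h, 56.3, 61.4 and 56.4 after 6 h, 61.0, 61.9 and 55.9 after 12 h and 64.3, 71.1 and 68.8 after 24 h. The libraries of 6 and 12 h lay below all 0 h libraries and those of 24 h overlapped them. It fell by 0.27 on the log2 scale at 6 h (SE 0.0634, adjusted p = 0.00432), and by 0.41 with the trends removed. The 12 h call (-0.23, adjusted p = 0.0227) was lost without 0 h replicate 1 (-0.23, 0.0669), 0 h replicate 2 (-0.20, 0.09) or 12 h replicate 3 (-0.18, 0.0996). At 24 h the log2 fold change was -0.04 (adjusted p = 0.686), but -0.22 and called with the trends removed.

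The promoter windows of LAMB3 and LAMA3 are shown because these 2 partners moved in opposite directions at 6 h (RefSeq, GRCh38.p14: LAMB3 at chr1:209652376-209652675, minus, and LAMA3 at chr18:23872770-23873069, plus). The LAMA3 window lies inside the GENCODE gene, which spans 23689443 to 23956222, so it is the start of a shorter transcript. Counts were per gene, so the fall of LAMA3 cannot be assigned to this transcript or to the long form. Capitals again mark the motifs searched.
LAMB3: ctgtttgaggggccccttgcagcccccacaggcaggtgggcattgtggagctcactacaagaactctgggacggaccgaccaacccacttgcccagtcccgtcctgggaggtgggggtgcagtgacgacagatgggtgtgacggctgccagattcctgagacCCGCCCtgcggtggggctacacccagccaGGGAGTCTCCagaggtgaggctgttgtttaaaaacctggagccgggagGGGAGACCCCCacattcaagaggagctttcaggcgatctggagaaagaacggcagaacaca
LAMA3: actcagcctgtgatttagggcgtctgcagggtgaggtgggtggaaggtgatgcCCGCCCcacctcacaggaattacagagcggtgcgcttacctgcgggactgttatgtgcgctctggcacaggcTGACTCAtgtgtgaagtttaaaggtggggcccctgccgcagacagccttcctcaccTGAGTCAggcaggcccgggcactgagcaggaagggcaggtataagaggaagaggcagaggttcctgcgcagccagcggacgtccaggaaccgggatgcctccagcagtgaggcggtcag
In LAMB3 the capitals are a GC box at -88 and matches to the NF-kB consensus beginning at -59 and -11 from the start, the second of which is several overlapping matches. In LAMA3 they are a GC box at -197 and AP-1 sites (TGANTCA) at -125 and -69. These are matches of letters and not evidence of binding.

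LAMC1, the gamma chain of most other laminins, rose late. It was at 214, 235 and 242 CPM at 0 h, 231 and 209 after 1 h, 201, 185 and 225 after 3 h, 271, 305 and 300 after 6 h, 253, 290 and 273 after 12 h and 299, 339 and 343 after 24 h. All libraries from 6 h on lay above all those before. LAMC1 had a log2 fold change of 0.34 at 6 h (SE 0.0781, adjusted p = 0.00322) and 0.51 at 24 h (SE 0.0781, adjusted p = 0.000108). With the trends removed these were 0.22 and 0.33, more than 1.5 times smaller but still called. The 12 h call (0.24, adjusted p = 0.0475) was lost without any 1 of the 0 h libraries (0.19, 0.206; 0.26, 0.098; 0.27, 0.0556), without 12 h replicate 2 (0.19, 0.21) or without 12 h replicate 3 (0.24, 0.101).

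By library totals alone the 12 h calls of LAMC1 (0.27, adjusted p = 0.0516) and LAMA3 (-0.19, 0.0609) also ended. The partners of LAMC1 were not called higher with it. LAMB1, the common beta chain, was at 177, 176 and 177 CPM at 0 h and 179, 179 and 182 at 24 h (0.03, adjusted p = 0.741). It was lower at 3 h, at 153, 147 and 164 CPM (-0.20, adjusted p = 0.0151), a call lost without 3 h replicate 1 (-0.19, 0.0556) or 3 h replicate 2 (-0.16, 0.0767). LAMA5, the alpha chain of epithelial laminin-511, was lower at 6 h, at 130, 142 and 128 CPM against 168, 162 and 151 (-0.26, adjusted p = 0.0206). That call was lost without 0 h replicate 1 (-0.23, 0.0908) or 2 (-0.25, 0.0558), or 6 h replicate 1 (-0.25, 0.0501) or 3 (-0.23, 0.0898). LAMB2 stayed between 168 and 209 CPM and LAMA4 between 2.40 and 4.45, and neither was called against 0 h. At 24 h 3 of 8 laminins were higher, LAMC1 and LAMB3 among them, and 0 lower (18% and 17.1% of all genes). By library totals alone 4 were higher, with LAMA5 (0.25) added. The split was 4 higher and 1 lower with the length and GC trends removed, the added ones being LAMA5 (0.17) and LAMA3 (-0.22).

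Among the integrins 3 alpha chains that pair with ITGB1 (ITGA2, ITGA5 and ITGA6) were called lower at 3 h and higher at 6 and 24 h. ITGA2, the alpha chain of the main collagen receptor, lies on chromosome 5 at 52989326 to 53094779 (GRCh38) and had the widest course of all members, with a 3.02-fold range between its time means. It was at 95.4, 124 and 128 CPM at 0 h, 110 and 91.7 after 1 h and 68.0, 59.1 and 82.5 after 3 h, then at 145, 182 and 185 after 6 h, 141, 185 and 158 after 12 h and 167, 242 and 222 after 24 h. The 3 h libraries were below all others, and those from 6 h on were above all earlier ones. From 3 to 6 h the log2 fold change was 1.29 (SE 0.176, adjusted p = 0.00015, 1.05 with the trends removed), a 2.44-fold rise. At 24 h it was 0.86 against 0 h (SE 0.17, adjusted p = 0.00205, 1.82-fold, 0.64 with the trends removed), and this held under every setting.

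The call of ITGA2 at 3 h (-0.73, adjusted p = 0.0138) was lost without 0 h replicate 3 (-0.65, 0.0591) or 3 h replicate 2 (-0.62, 0.0653). Its call at 6 h (0.56, adjusted p = 0.0249) was lost without 0 h replicate 1 (0.44, 0.0994), 6 h replicate 2 (0.51, 0.082) or 6 h replicate 3 (0.50, 0.0933). ITGA1, another collagen-binding alpha chain in the set, was far lower than ITGA2. It was at 10.0, 10.5 and 12.4 CPM at 0 h and 12.6, 14.9 and 14.5 at 24 h. Its 24 h call (0.35, adjusted p = 0.0139) was gone with the trends removed (0.11). It was also lost without 0 h replicate 1 (0.29, 0.0804) or 2 (0.32, 0.0512), or 24 h replicate 2 (0.30, 0.0674) or 3 (0.32, 0.0541).

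ITGA6, the alpha chain of the laminin receptors, was at 318, 345 and 366 CPM at 0 h, 336 and 283 after 1 h, 244, 233 and 300 after 3 h, 387, 451 and 451 after 6 h, 375, 460 and 415 after 12 h and 442, 525 and 499 after 24 h. The 3 h libraries lay below and the later ones above all 0 h libraries. The log2 fold change was 0.51 at 24 h (SE 0.103, adjusted p = 0.00128, 0.35 with the trends removed). At 3 h it was -0.40 (adjusted p = 0.0129), lost without 0 h replicate 3 (-0.35, 0.0633), 3 h replicate 1 (-0.36, 0.057) or 3 h replicate 2 (-0.33, 0.068). At 6 h it was 0.32 (adjusted p = 0.024, 0.22 with the trends removed), lost without 0 h replicate 1 (0.27, 0.104), 0 h replicate 2 (0.33, 0.0556), 6 h replicate 2 (0.29, 0.0903) or 6 h replicate 3 (0.29, 0.0941).

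ITGB4, the hemidesmosomal partner of ITGA6, was not called higher with it at any time. It was at 165, 201 and 177 CPM at 0 h, 170 and 158 after 1 h, 140, 134 and 127 after 3 h, 138, 152 and 152 after 6 h, 147, 150 and 164 after 12 h and 183, 198 and 203 after 24 h. The libraries of 3, 6 and 12 h lay below all 0 h libraries and those of 24 h overlapped them. It fell by 0.44 on the log2 scale at 3 h (SE 0.0724, adjusted p = 0.000389) and by 0.30 at 6 h (adjusted p = 0.00477), and both held under every setting. At 12 h it was called (-0.23, adjusted p = 0.0374), but not with the trends removed (-0.12), nor without 0 h replicate 2 (-0.15, 0.206) or 3 (-0.26, 0.052), or 12 h replicate 1 (-0.21, 0.104) or 2 (-0.22, 0.136). At 24 h its log2 fold change was 0.10 (adjusted p = 0.264).

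ITGA5, the alpha chain of the fibronectin receptor, changed at the most times. It was at 119, 132 and 131 CPM at 0 h and 129 and 133 at 1 h, and at 104, 109 and 110 at 3 h. Thereafter it was at 138, 154 and 141 after 6 h, 150, 166 and 160 after 12 h and 173, 173 and 173 after 24 h. From 3 h on no time overlapped 0 h. On the log2 scale ITGA5 changed by -0.24 at 3 h (adjusted p = 0.00878), 0.32 at 12 h (adjusted p = 0.00127) and 0.45 at 24 h (SE 0.0577, adjusted p = 1.99e-05, 0.39 with the trends removed), all held under every setting. That at 6 h (0.18, adjusted p = 0.0219) was lost without 0 h replicate 1 (0.14, 0.125) or 6 h replicate 2 (0.13, 0.136).

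ITGB1, the shared beta chain, was at 1195, 1269 and 1389 CPM at 0 h, 1339 and 1114 after 1 h, 1068, 954 and 1182 after 3 h, 1382, 1613 and 1602 after 6 h, 1291, 1526 and 1401 after 12 h and 1426, 1569 and 1571 after 24 h. The 3 h libraries were below and the 24 h libraries above all those at 0 h, while 6 h overlapped. Its calls were near the threshold. At 3 h the log2 fold change was -0.27 (adjusted p = 0.0492), lost without 0 h replicate 2 (-0.27, 0.104) or 3 (-0.20, 0.208), or 3 h replicate 1 (-0.26, 0.115) or 2 (-0.19, 0.221). At 6 h it was 0.25 (adjusted p = 0.0402), lost without 0 h replicate 1 (0.20, 0.161) or 2 (0.25, 0.0977), or 6 h replicate 2 (0.22, 0.147) or 3 (0.22, 0.142). At 24 h it was 0.24 (adjusted p = 0.0426), lost without 0 h replicate 1 (0.19, 0.173) or 2 (0.24, 0.101), or 24 h replicate 2 (0.22, 0.125) or 3 (0.22, 0.124). From 3 to 6 h ITGB1 rose by 0.52 (adjusted p = 0.00025, 0.43 with the trends removed).

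ITGA3, the laminin receptor chain second to ITGB1 in level, was at 1103, 1250 and 1166 CPM at 0 h and 978, 1004 and 1049 at 12 h. Its 12 h libraries lay below all 0 h libraries. The call (-0.22, adjusted p = 0.0194, -0.14 with the trends removed) was lost without 0 h replicate 2 (-0.17, 0.106), 12 h replicate 1 (-0.20, 0.0643) or 12 h replicate 2 (-0.21, 0.0725), and by library totals alone (-0.18, 0.0578). At 24 h, when ITGA2, ITGA5 and ITGA6 were higher, ITGA3 was at 1049, 1130 and 1134 CPM (-0.09, adjusted p = 0.251).

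Of the vitronectin receptor chains ITGAV was at 74.4, 84.4 and 106 CPM at 0 h, 95.3 and 68.7 after 1 h, 73.6, 56.1 and 81.8 after 3 h, 112, 146 and 146 after 6 h, 88.3, 108 and 90.5 after 12 h and 101, 145 and 145 after 24 h. Its 0 h libraries spread widely, and those of 24 h overlapped them. The 6 h call (0.61, adjusted p = 0.0321) was lost without 0 h replicate 1 (0.50, 0.122) or 2 (0.58, 0.0795), or 6 h replicate 2 (0.55, 0.103) or 3 (0.55, 0.108). The 24 h call (0.56, adjusted p = 0.041, 0.36 with the trends removed) was lost without 0 h replicate 1 (0.45, 0.149) or 2 (0.53, 0.0967), or 24 h replicate 2 (0.48, 0.135) or 3 (0.48, 0.128).

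The beta partners of ITGAV differed in level and course. ITGB5 was at 184, 209 and 197 CPM at 0 h and 170, 159 and 174 at 3 h, and its call (-0.23, adjusted p = 0.0135) was lost without 0 h replicate 2 (-0.18, 0.0774) or 3 h replicate 2 (-0.19, 0.0709). At 12 h it was called again (-0.18, adjusted p = 0.0481) and lost without 0 h replicate 2 (-0.14, 0.201) or 3 (-0.19, 0.0825), or 12 h replicate 1 (-0.14, 0.165) or 2 (-0.19, 0.12). ITGB3 was at 1.40 to 6.57 CPM and was not called against 0 h, but rose from 3 to 6 h (1.17, SE 0.326, adjusted p = 0.0079, 2.26-fold), from 3.26, 1.40 and 2.37 to 3.67, 6.57 and 5.72 CPM. ITGB8 was at 0.937 to 3.18 CPM and was not called against 0 h. ITGB2, the beta chain of leukocyte integrins, was low and fell at 12 h, from 8.40, 10.5 and 8.59 to 4.39, 5.37 and 7.16 CPM without overlap (-0.69, SE 0.154, adjusted p = 0.00651), and this held under every setting. ITGA10 and ITGAE were called at no time against 0 h.

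Scaling by library totals alone ended the 12 h calls of ITGB4 (-0.20, adjusted p = 0.0974) and ITGB5 (-0.15, 0.137) and the 6 h call of ITGB1 (0.26, 0.0699). Upper-quartile scaling ended the 6 h calls of ITGA5 (0.11, 0.119), ITGB1 (0.19, 0.101) and the collagen COL6A3 (0.17, 0.0716). Averaging replicates 2 and 3 at 6 and 24 h also ended the calls of COL6A3 and ITGB1 at 3 h, COL6A3, COL17A1 and ITGB3BP at 6 h, LAMC1 and ITGB5 at 12 h and COL9A2 at 24 h. By family 6 integrins were lower and 0 higher at 3 h (8.71% of all genes were lower and 9.04% higher). The 6 became 3 without 0 h replicate 3 and 2 without 3 h replicate 2. At 6 h 5 were higher and 1 lower (16.9% and 13.2% of all genes), a total that became 1 without 0 h replicate 1, 3 without 0 h replicate 2, 1 without 6 h replicate 2 and 2 without 6 h replicate 3. With replicates 2 and 3 averaged none of the 5 was called higher: ITGA2 was at 0.49 (adjusted p = 0.0951), ITGA5 at 0.15 (0.115), ITGA6 at 0.28 (0.112), ITGAV at 0.54 (0.119) and ITGB1 at 0.21 (0.181). At 12 h 1 was higher and 4 lower (5.96% and 6.48%), or 1 and 1 by library totals alone, the 5 becoming 2 without 0 h replicate 2, 3 without 0 h replicate 3, 2 without 12 h replicate 1 and 2 without 12 h replicate 2. At 24 h 6 were higher and 0 lower (18% and 17.1% of all genes). With the trends removed 5 were higher and 1 lower, the lower one being ITGB2 (-0.36). The 6 became 3 without 0 h replicate 1, 3 without 0 h replicate 2, 3 (beside 1 lower) without 24 h replicate 2 and 3 without 24 h replicate 3. With replicates 2 and 3 averaged 3 were left, and ITGA1 (0.30, adjusted p = 0.0727), ITGAV (0.47, 0.15) and ITGB1 (0.21, 0.149) were not called. Of 14 integrins 10 had their lowest mean at 3 h, and 6 had their highest at 6 h and 6 at 24 h. Of 18 collagens 7 had their highest mean at 6 h, and 6 had their lowest at 12 h and 7 at 24 h. Times of the highest and lowest mean were not counted over all genes tested. These counts therefore cannot show a course particular to integrins or collagens.

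The 3 genes matched by name alone are other proteins. ITGB1BP1 binds the tail of the beta chain, was at 116 to 153 CPM and was called at no time. ITGB3BP, a nuclear protein of the centromere, was at 29.6, 22.1 and 26.1 CPM at 0 h and 22.4, 21.7 and 21.2 at 6 h. Its call there (-0.25, adjusted p = 0.0496) was gone with the trends removed (-0.12), with the replicate block (adjusted p = 0.0505) and without 0 h replicate 1 (-0.15, 0.295) or 3 (-0.25, 0.0942), or any 1 of the 6 h libraries (-0.27, 0.0594; -0.25, 0.114; -0.23, 0.146). ITGBL1, a secreted relative of the beta chains, was at 2.92, 2.24 and 2.49 CPM at 0 h and 1.58, 1.86 and 1.35 at 6 h. That call (-0.68, adjusted p = 0.0138) was lost without 0 h replicate 1 (-0.58, 0.0738) or 6 h replicate 3 (-0.57, 0.0828).

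Chains that meet in 1 protein can be compared within each library, where depth and scaling cancel. The trends of length and GC content do not cancel where partners differ in these, and they were not removed from the ratios. The GC content, for example, was 0.43 for ITGA6 and 0.64 for ITGB4, and the longest transcript 7869 bases for ITGA2 and 3784 for ITGB1. Over 12 pairs and 5 times, 60 exact two-sided permutation tests were made. With 3 libraries against 3 the smallest p is 0.1, or 0.194 after Benjamini-Hochberg adjustment, so the ratios cannot pass and are given as values. LAMB3 over LAMA3 had a mean log2 ratio of counts of 2.46 (2.28 to 2.56) at 0 h, and 3.14 (3.08 to 3.24) at 6 h. LAMC1 over LAMB1 went from 0.38 (0.27 to 0.45) at 0 h to 0.86 (0.74 to 0.93) at 24 h. Neither pair of ranges overlapped. ITGA6 over ITGB4 had means of 0.92 at 0 h, 0.95 after 3 h, 1.54 after 6 h and 1.33 after 24 h, also without overlap between 0 h and the last 2.

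ITGA2 over ITGB1 had a mean log2 ratio of -3.48 at 0 h, -3.94 after 3 h, -3.17 after 6 h and -2.87 after 24 h, so that the alpha chain moved by more than its beta chain in both directions. ITGA3 over ITGB1 went down, from -0.13 at 0 h to -0.46 at 24 h, without overlap. COL4A1 over COL4A2 had means of -1.70 at 0 h, -1.36 at 6 h and -1.76 at 24 h. The widest collagen ratio was that of COL1A1 over COL1A2, at 0.41 (0.04 to 0.73) at 0 h, a mean of 1.37 at 3 h and -0.43 (-0.58 to -0.22) at 24 h.

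**Figure D4:**
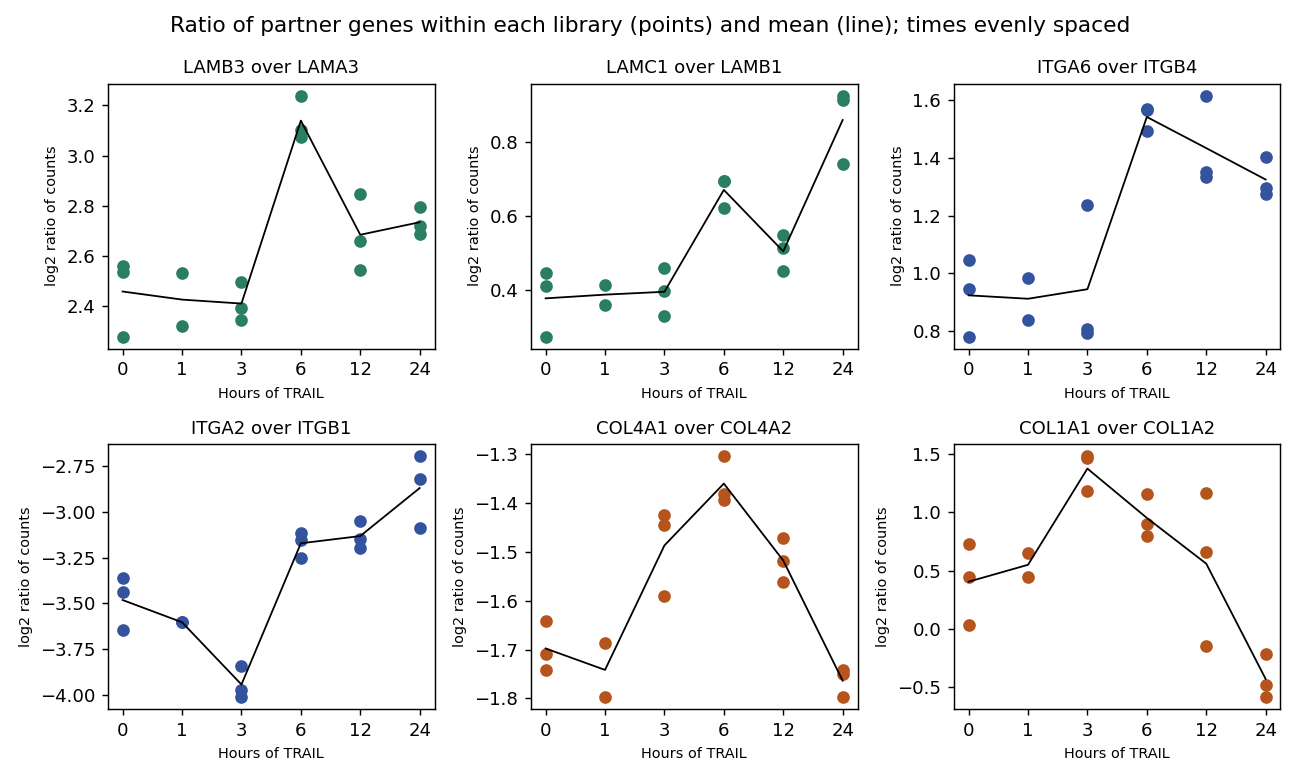
Log2 ratio of the counts of partner genes in each of 17 libraries (points) against hours of TRAIL, spaced evenly, with a line through the mean of each time and an axis of its own for each pair. LAMB3 over LAMA3 goes from a mean of 2.46 at 0 h to 3.14 at 6 h, and COL1A1 over COL1A2 is highest at 3 h (1.37) and lowest at 24 h (-0.43). The trends of length and GC content were not removed.

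Removing the trends of length and GC content ended some calls and added others. Of the 63 calls against 0 h 57 stood, with their sign, once the trends were removed. The 6 that were not are COL6A3 and ITGB3BP at 6 h, COL6A2 and ITGB4 at 12 h, and COL9A2 and ITGA1 at 24 h. Another 15 calls were gained, 2 after 3 h (COL6A2 and COL7A1), 1 after 6 h (COL6A2), 6 after 12 h (COL5A1, COL6A3, COL8A1, ITGA1, ITGA2 and LAMA4) and 6 after 24 h (COL27A1, COL6A1, ITGB1BP1, ITGB2, LAMA3 and LAMA5). With the trends removed 4 members were higher and 10 lower after 3 h, 14 and 7 after 6 h, 4 and 12 after 12 h and 10 and 11 after 24 h. Among all 15365 genes tested 1983 were then higher and 1881 lower after 3 h, and 2893 and 1733 after 6 h. After 12 h these were 1224 and 1190, and after 24 h 2774 and 2488. With the trends left in they were 1389 and 1338 after 3 h and 2602 and 2025 after 6 h. After 12 h they were 916 and 995, and after 24 h 2763 and 2625. The members' median log2 fold change at 24 h went from 0.07 to 0.00.

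**Figure D5:**
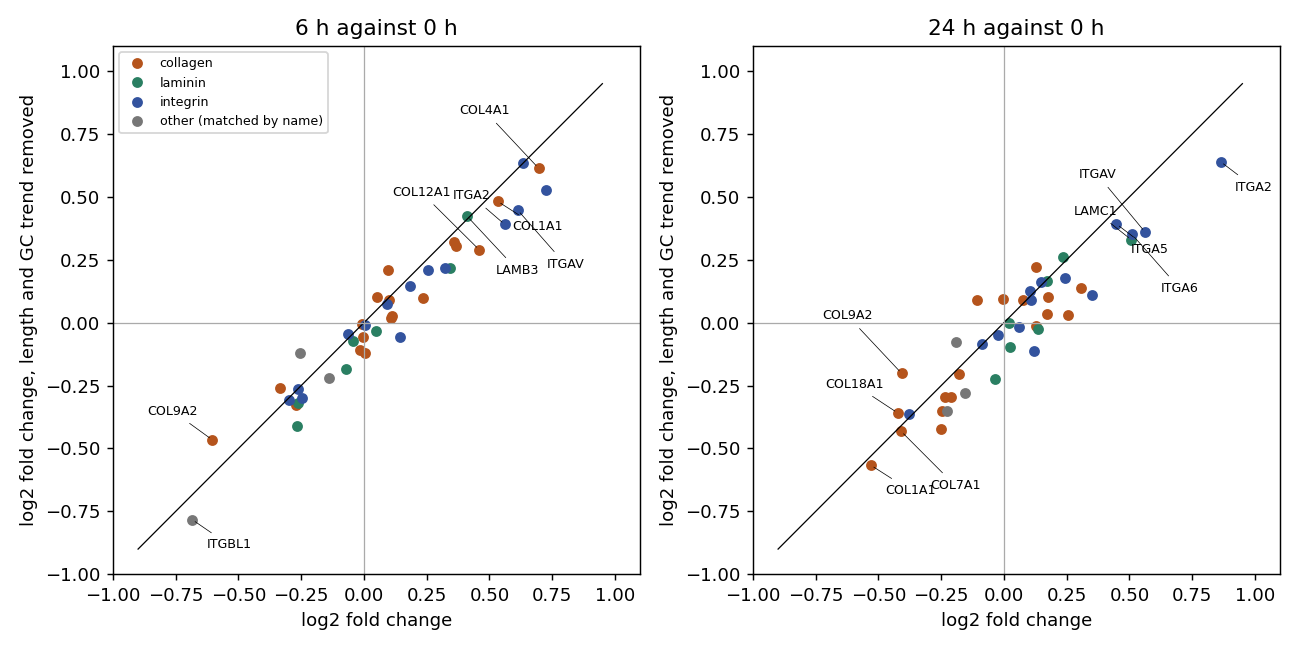
Log2 fold change of the members at 6 h and 24 h against 0 h as fitted (horizontal) and with the trends of transcript length and GC content removed (vertical), coloured by family, with the line of equal values. LAMB3 lies close to the line (0.41 and 0.42 at 6 h), while ITGA2 at 24 h (0.86 and 0.64) lies below it.

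Genes around the members were read from 4 lists. Of all genes tested 9.04% were higher and 8.71% lower after 3 h, 16.9% and 13.2% after 6 h, 5.96% and 6.48% after 12 h and 18% and 17.1% after 24 h. Of the 21 tested enzymes and chaperones of collagen processing 0 were higher and 7 lower after 3 h, 0 and 8 after 6 h, and 2 and 6 after both 12 h and 24 h, with medians of -0.15, -0.09, -0.11 and -0.09. The 7 became 4 without 0 h replicate 3, and the 8 at 6 h became 5 without 0 h replicate 2, 6 h replicate 1 or 6 h replicate 2 and 4 without 6 h replicate 3. The 8 at 12 h became 5 without 0 h replicate 2, 4 without 0 h replicate 3 and 5 without 12 h replicate 1. P4HA1, a prolyl hydroxylase, fell at 3 h (-0.58). At 24 h BMP1, which cuts the ends off procollagen, fell (-0.59, adjusted p = 2.11e-06), as did the cross-linking enzyme LOX (-0.49, adjusted p = 0.000211), while the related LOXL4 rose (0.55, adjusted p = 1.83e-06) after being lower at 3 h (-0.37) and 6 h (-0.59, adjusted p = 7.71e-07). P4HA3 fell by 1.48 on the log2 scale at 24 h (adjusted p = 0.0141), from a mean of 1.06 to 0.376 CPM. These calls held under every setting. At 1 h no gene of the 4 lists was called.

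Of 10 other matrix proteins tested 0 were higher and 1 lower after 3 h, 2 and 1 after 6 h, 0 and 3 after 12 h and 1 and 3 after 24 h, with medians of -0.16, 0.20, -0.07 and -0.03. The 3 calls at 6 h became 1 without 0 h replicate 1 and 5 without 6 h replicate 1, and the 1 at 3 h became 0 without 0 h replicate 2 or 3 or 3 h replicate 1, and 2 without 0 h replicate 1 or 3 h replicate 3. FN1, fibronectin, was called higher at 6 h and lower at 12 h and 24 h, with means of 1185 CPM at 0 h, 1587 after 6 h, 850 after 12 h and 684 after 24 h. The 6 h call (0.42, adjusted p = 0.0104, 0.25 with the trends removed) was lost without 0 h replicate 1 and with replicates 2 and 3 averaged, and the 12 h call (-0.48, adjusted p = 0.0114) without 12 h replicate 2. At 24 h FN1 fell by 0.79 on the log2 scale (SE 0.114, adjusted p = 9.93e-05, and -1.02 with the trends removed). TGFBI, which binds collagen and integrins, fell from 318 to 177 CPM (-0.84, SE 0.0563, adjusted p = 4.39e-09), and VTN, vitronectin, from 3.65 to 1.06 (-1.78, adjusted p = 9.03e-05). THBS1, thrombospondin, rose at 6 h from 1283 to 2300 CPM (0.84, adjusted p = 0.000301). FN1, TGFBI and VTN at 24 h and THBS1 at 6 h held under every setting.

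Of 19 adaptors that link integrins to actin 1 was higher and 1 lower after 3 h, 11 and 1 after 6 h, 0 and 0 after 12 h and 5 and 2 after 24 h, with medians of -0.01, 0.25, 0.02 and 0.09. The 12 at 6 h became 7 with replicates 2 and 3 averaged. TNS3, a tensin, was higher at 6 h (0.56) and at 24 h (0.80, adjusted p = 4.04e-05), and FLNA, the filamin that binds integrin tails, at 6 h (0.57) and 24 h (0.51, adjusted p = 0.000707). ZYX, zyxin, was higher at 3 h (0.45) and 6 h (0.29) and lower at 24 h (-0.26), the last not with the trends removed (-0.03). Of 10 matrix receptors that are no integrins 1 was higher and 3 lower after 3 h, 2 and 2 after 6 h, 0 and 2 after 12 h and 2 and 3 after 24 h, with medians of -0.10, -0.10, -0.12 and -0.07. The receptor counts became 2 without 0 h replicate 3 at 3 h, 2 without 0 h replicate 1, 0 h replicate 2 or 6 h replicate 3 at 6 h, 1 without 12 h replicate 2 at 12 h, and 3 without 0 h replicate 1, 24 h replicate 2 or 24 h replicate 3 at 24 h. SDC4, a syndecan that works beside integrins in focal adhesions, rose at 3 h (0.36) and 6 h (0.56, adjusted p = 7.82e-07). SDC1, a syndecan on the same list, was lower at 3 h (-0.43), 6 h (-0.18), 12 h (-0.37) and 24 h (-0.28). Its 6 h call was lost without any 1 of the 0 h or 6 h libraries and with the trends removed (-0.11). CD151, a tetraspanin partner of laminin-binding integrins, fell at 24 h (-0.37, adjusted p = 0.000787, -0.13 with the trends removed).

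Promoter windows of 300 bases were at hand for 34 of the 43 members. Both strands were searched, and the first window listed for a gene was used. The GC box GGGCGG was in 70.6% of member windows and 44.6% of the windows of all 27305 genes, the CCAAT box CCAAT in 20.6% and 35.7%, and the TATA box TATAAA in 14.7% and 12%. The AP-1 letters TGANTCA were in 5.88% and 7.76%, the members being LAMA3 and ITGA5. The NF-kB consensus was in 10 of 34 member windows (29.4%) and 10.8% of all. ITGB1BP1, which is no integrin, is among the 10. The fixed letters of that pattern are all G or C, and member windows also held the GC box more often. The windows of all genes were not limited to genes tested for expression, and these differences were not tested.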

How the data were processed

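The authors deposited 1 table of expected counts per gene, an RSEM output going by its file name. The submitters' processing notes name cutadapt 1.18, STAR 2.7.0f and hg38. The RSEM version, annotation release and strand setting were not given in the sources used here. Values that were not whole made up 10.8% of these deposited expected counts, and all were rounded. Entries were matched to GENCODE 29 (GRCh38) by Ensembl identifier for positions and lengths: 47420 of 58870 with the version and 58552 without it.

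Counts were analysed in R 4.3.3 with edgeR 4.0.16: filterByExpr (15365 genes kept), TMM scaling, 1 robust quasi-likelihood fit of 17 libraries with a mean per time, and Benjamini-Hochberg adjustment over all genes tested, called under 0.05. The biological coefficient of variation was 7.06%. CPM used TMM-scaled library sizes. Coordinates and promoter windows are on GRCh38. The length and GC trends were removed as splines with 4 degrees of freedom per library. DESeq2 1.42.0 and limma-voom 3.58.1, other scalings and filters, a replicate block, averaging of replicates 2 and 3 at 6 and 24 h, and leaving out each library were alternatives. The fit was tested on simulated counts. The members and lists were chosen with earlier results of these data known. Values by library, or their range, are given for the 4 highest and 4 lowest called members of each time, the 3 highest per length of each family, partner chains and members at the minimum; others were added after their values were seen. For 1 member no value is reported here, though it stays in the counts and medians.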

Additional observations from a re-analysis of the deposited data

How the results depend on the processing

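Leaving out 1 library at a time gave 0 to 0 calls at 1 h (0 with all libraries), 5 to 14 at 3 h (12), 12 to 21 at 6 h (22), 5 to 10 at 12 h (12) and 9 to 15 at 24 h (17) against 0 h. It gave 0 to 3 from 1 to 3 h (4), 23 to 28 from 3 to 6 h (27), 12 to 16 from 6 to 12 h (17), 5 to 17 from 12 to 24 h (15) and 33 to 36 over all times (35). Where 1 library was left at 1 h, it was assumed to vary like the other groups. Scaling by library totals alone gave 7 calls at 12 h and 2 from 1 to 3 h, and a fit of only the compared groups gave 0 from 1 to 3 h. Averaging replicates 2 and 3 at 6 and 24 h gave 14 calls at 6 h, 2 from 1 to 3 h and 4 from 12 to 24 h. The cause of these differences was not tested. Of the 63 calls against 0 h, 61 were made again with DESeq2, 60 with limma-voom, 51 by library totals alone, 46 with averaging and 57 with the length and GC trends removed, which also gained 15. No call reversed under any of the alternatives run.

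Over 40 same-numbered pairs the correlation of deviations from the mean of each time ran from -0.20 to 0.21, and 8 were over 0.1. Their mean was 0.009, against -0.0045 in pairs of different number. These values do not settle whether libraries of the same number were handled together. With the replicate number as a block 62 of the 63 calls were made again and 6 were gained: COL7A1 and ITGA1 at 3 h, COL7A1, ITGA2 and ITGA6 at 12 h and COL12A1 at 24 h. Depth limits the members with few counts: ITGB8, ITGBL1, ITGA10, LAMA4 and ITGB3 had the widest errors.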
